A study of Arabidopsis thaliana with 24 samples.

Results

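The genes described here encode 5 SnRK2 protein kinases and 5 ABF-type transcription factors of Arabidopsis thaliana. They were chosen by their gene identifiers, with no cut on measured values but with earlier results of these data known. They make up 10 of the 37336 genes in each deposited table. The kinases were SnRK2.2 (AT3G50500), SnRK2.3 (AT5G66880), OST1 (AT4G33950, also called SnRK2.6), SnRK2.7 (AT4G40010) and SnRK2.8 (AT1G78290). The factors were ABF1 (AT1G49720), ABF2 (AT1G45249), ABF3 (AT4G34000), ABF4 (AT3G19290) and ABI5 (AT2G36270).

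RNA was sequenced from leaves of the wild-type accession Col-0 and of gtl1-4, a line labelled as a knockout of the trihelix transcription factor gene GTL1. In the well-watered groups the water content of the medium was held between 65 and 100%, and in the water-deficit groups it was held at 30%. The leaves were either emerging, 1 day old, or expanding, 14 to 15 days old. Each of the 8 groups had 3 biological replicates of 10 pooled plants. The leaves were taken whole, so a change in the number of cells of a type and a change in RNA per cell cannot be told apart, and gtl1-4 is a single mutant line.

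Abscisic acid (ABA) is the hormone that accumulates when plants run short of water. When ABA is bound, receptors of the PYR/PYL family inhibit clade A protein phosphatases (PP2Cs), which otherwise hold SnRK2 kinases inactive. SnRK2.2, SnRK2.3 and OST1 form the subclass most strongly activated by ABA, while SnRK2.7 and SnRK2.8 belong to a subclass that ABA activates weakly. Active kinases phosphorylate bZIP factors of the ABF group, which bind the ABA-responsive element (ABRE) and raise transcription of stress genes. Because the kinases and factors are controlled in large part by phosphorylation, transcript levels describe the pools of message and not the activity of the proteins.

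The core of an ABRE is ACGTG, and the palindrome CACGTG is the G-box, which holds that core on both strands. The 250 bases upstream of each annotated gene start were read from the TAIR10.1 genome of RefSeq and searched for both motifs on both strands. ACGTG was found upstream of 6 of the 10 genes, against 22.9% of the promoters of 27443 protein-coding nuclear genes, and CACGTG upstream of 3, against 6.49%. ABI5 held 7 matches to ACGTG, counting each strand of its 3 palindromes, and SnRK2.3 and SnRK2.7 held 1 palindrome each. In the window of SnRK2.7, which is among the 6 and the 3, 207 of the 250 bases are exon of a neighbouring gene, AT4G40011. The other 9 windows hold no exon bases of other genes. ABF1 held 2 matches, and ABF3 and ABF4 held 1 each, while no match was found in the windows of SnRK2.2, OST1, SnRK2.8 and ABF2. When the first 50 bases of the gene were added, ABF4 held 2 matches and the other 9 counts stayed as they were. The windows shown are those with a match other than that of SnRK2.7, with ABF2 and SnRK2.8 as examples without a match. The windows of SnRK2.2 and OST1, also without a match, are not shown. Capitals mark ACGTG and its reverse complement CACGT, and each sequence is given 5′ to 3′ on the strand of its gene.
SnRK2.3 (chr5:26710052-26710301, plus strand): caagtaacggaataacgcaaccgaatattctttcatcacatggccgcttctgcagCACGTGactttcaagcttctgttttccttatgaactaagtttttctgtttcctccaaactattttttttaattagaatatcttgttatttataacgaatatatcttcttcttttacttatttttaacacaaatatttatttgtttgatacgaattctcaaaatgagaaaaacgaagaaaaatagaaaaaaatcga
SnRK2.8 (chr1:29459494-29459743, minus strand): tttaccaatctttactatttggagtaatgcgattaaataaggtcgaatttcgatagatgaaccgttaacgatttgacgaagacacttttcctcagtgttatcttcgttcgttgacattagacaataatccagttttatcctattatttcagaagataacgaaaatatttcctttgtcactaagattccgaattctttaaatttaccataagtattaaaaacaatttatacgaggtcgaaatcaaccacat
ABF1 (chr1:18399753-18400002, plus strand): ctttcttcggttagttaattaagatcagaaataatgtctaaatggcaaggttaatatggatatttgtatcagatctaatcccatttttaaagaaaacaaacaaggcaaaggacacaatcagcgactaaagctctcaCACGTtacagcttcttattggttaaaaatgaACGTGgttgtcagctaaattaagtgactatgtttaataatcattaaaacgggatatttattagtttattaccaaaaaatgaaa
ABF2 (chr1:17167925-17168174, minus strand): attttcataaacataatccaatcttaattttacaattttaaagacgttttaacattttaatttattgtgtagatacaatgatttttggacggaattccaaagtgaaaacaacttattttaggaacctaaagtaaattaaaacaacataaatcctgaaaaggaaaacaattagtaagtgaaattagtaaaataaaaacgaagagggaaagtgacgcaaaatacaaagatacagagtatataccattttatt
ABF3 (chr4:16295084-16295333, plus strand): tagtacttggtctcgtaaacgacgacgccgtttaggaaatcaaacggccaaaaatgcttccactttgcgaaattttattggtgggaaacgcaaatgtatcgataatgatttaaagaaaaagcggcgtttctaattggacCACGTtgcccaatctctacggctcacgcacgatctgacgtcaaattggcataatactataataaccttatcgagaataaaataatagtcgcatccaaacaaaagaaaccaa
ABF4 (chr3:6686792-6687041, plus strand): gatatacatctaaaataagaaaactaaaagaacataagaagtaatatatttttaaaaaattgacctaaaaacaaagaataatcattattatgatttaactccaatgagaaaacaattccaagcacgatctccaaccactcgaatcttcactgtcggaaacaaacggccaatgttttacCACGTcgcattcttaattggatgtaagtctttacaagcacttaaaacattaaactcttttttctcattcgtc
ABI5 (chr2:15207637-15207886, minus strand): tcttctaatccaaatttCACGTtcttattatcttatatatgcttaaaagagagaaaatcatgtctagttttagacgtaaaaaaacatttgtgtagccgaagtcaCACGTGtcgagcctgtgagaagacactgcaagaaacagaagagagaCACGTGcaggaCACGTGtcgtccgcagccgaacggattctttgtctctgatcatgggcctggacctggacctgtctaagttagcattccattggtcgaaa

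**Figure D1:**
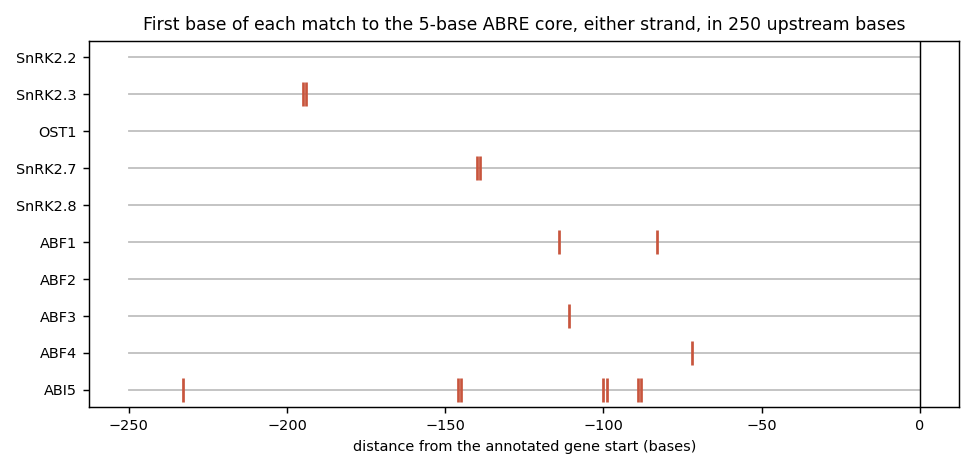
Distance in bases from the annotated gene start (x axis) of the first base of every match to the ABRE core on either strand, for each of the 10 genes (y axis), over 250 upstream bases. ABI5 has 7 marks, 6 of them in close pairs that are the strands of 3 palindromes, and 4 genes have none.

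Before the members are described, the libraries were checked as a whole. Recovered depth per library, in units of 1000000 counts, was 14.7 to 43.5 for emerging leaves, while for expanding leaves it was 14.9 to 27.1. Genes of the chloroplast took 17.4 to 24.1% of the emerging and 62.2 to 78.6% of the expanding leaf counts, and nuclear genes of the latter were left with 4.74 to 10.0 in the same unit. The highest chloroplast share belonged to replicate 2 of water-deficit Col-0 in expanding leaves. Well-watered replicate 2 of gtl1-4 stood apart in emerging leaves, where its counts differed from those of the other replicates by a chi-square per gene of 177 and 189, against 30.4 between those replicates and 7.08 to 57.6 in the other emerging groups. This measure was taken on linear counts, not on the log2 values that were tested. GTL1, the targeted gene, was lower in gtl1-4 in each of the 4 comparisons of genotype, with log2 fold changes of -2.12 (well-watered) and -2.5 (deficit) in emerging leaves, and of -1.60 and -1.88 at the later age (limma adjusted p of 8.00e-05 or less). The 3 seed markers, genes with which ABI5 is classically associated, were at or near 0 in every group, with summed levels of 0 to 0.422 nuclear CPM, the counts per 1000000 counts of nuclear genes.

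Levels were first compared between the genes as nuclear CPM per kilobase of exon (mean ± SD, n = 3). Among the kinases of well-watered Col-0, SnRK2.2 had the highest level in emerging leaves, at 46.15 ± 2.25, followed by SnRK2.3 at 31.0 ± 2.71 and OST1 at 4.44 ± 0.64. SnRK2.8 stood at 1.08 ± 0.0417 and SnRK2.7 at 0.0931 ± 0.161 in those leaves. In expanding leaves SnRK2.2 again led at 57.3 ± 7.04, SnRK2.3 was at 20.9 ± 3.27, and SnRK2.8 was next at 9.91 ± 2.3, above OST1 at 6.64 ± 0.821. Under water deficit the last pair changed places, with OST1 at 11.2 ± 3.58 and SnRK2.8 at 3.24 ± 0.177 in expanding leaves of Col-0. The tables of the leaf ages were scaled separately, so levels at different ages are set side by side as a description without a test.

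The order of the factors was ABF1, ABF4, ABF3, ABF2 and ABI5 at both ages in well-watered Col-0. On the same scale of level per kilobase, ABF1 was at 11.2 ± 1.33 and ABF4 at 7.45 ± 0.653 in emerging leaves. The exon length is the union over all annotated transcripts, 1720 bases for ABF1 and 2609 for ABF4, whose coding lengths are 1212 and 1299. The order of this pair in emerging leaves therefore depends on the length used and is not an order of their counts. ABF3, at 2.58 ± 0.69, and ABF2, at 2.44 ± 0.309, differed by less than their spread. In expanding leaves ABF1 stood at 12.4 ± 2.6, ABF4 at 5.67 ± 0.514, ABF3 at 4.56 ± 0.584 and ABF2 at 2.5 ± 1.09. ABI5 was the lowest of the factors, at 0.132 ± 0.17 in emerging and 0.0878 ± 0.152 in expanding leaves. Under water deficit ABF3 reached 12.2 ± 3.21 in expanding leaves of Col-0 and could not be ordered against ABF4 at 11.7 ± 0.765.

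**Figure D2:**
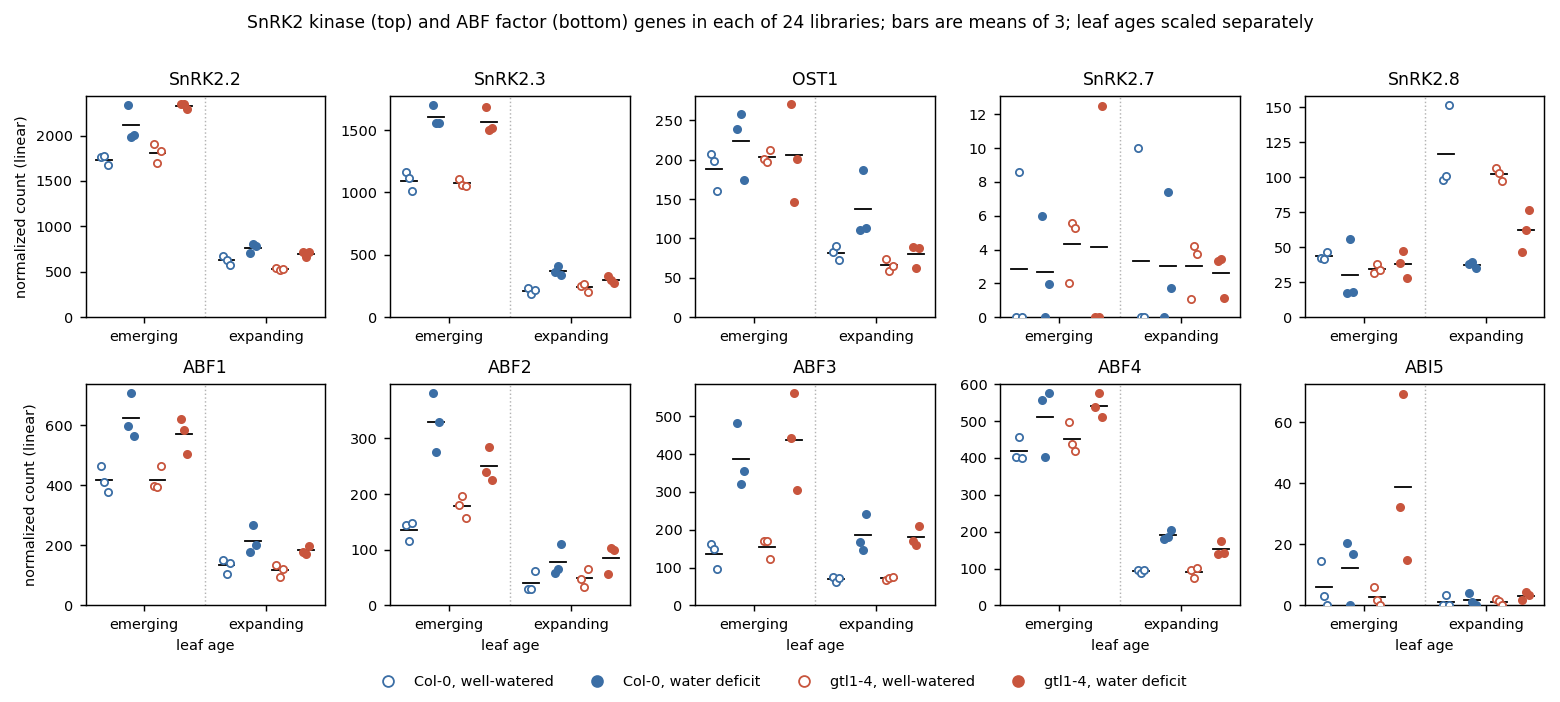
Deposited normalized counts (y axes, linear, from 0) of the 5 kinase genes in the top row and the 5 factor genes in the bottom row, with 1 point for each of the 24 libraries and a bar for the mean of 3. In expanding leaves SnRK2.8 of Col-0 lies at 97.7 to 152 when well-watered and at 35.5 to 39.4 under water deficit, whereas ABF3 lies higher under deficit in both genotypes and at both ages.

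The water response was tested within each genotype and leaf age with limma on log2(normalized count + 1), over every gene that averaged 10 or more, and a gene was called at a Benjamini-Hochberg adjusted p below 0.05. SnRK2.7 did not pass this filter at either age, and ABI5 passed it in emerging leaves but not in expanding leaves, which left 9 and 8 members tested. In emerging leaves of Col-0, 4 of 9 members rose (SnRK2.3, ABF1, ABF2 and ABF3) and none fell, where 6.48% of 18529 genes rose and 6.69% fell. In emerging leaves of gtl1-4, 3 of 9 rose (SnRK2.2, SnRK2.3 and ABF3), against 4.98% of all genes tested, and none fell, against 3.90%. At an unadjusted p below 0.05 in limma, 5 of 9 members differed in Col-0 and 6 of 9 in gtl1-4, where 27.7% and 24.5% of all genes did. Limma-voom called 4 and 3 members, against 2023 and 1510 of the 18529 genes. In expanding leaves of Col-0, 4 of 8 rose (SnRK2.3, ABF1, ABF3 and ABF4) and SnRK2.8 fell, where 6.18% of 16522 genes rose and 7.32% fell. In expanding leaves of gtl1-4, ABF3 and ABF4 rose, which is 2 of 8, against 2.36% of all genes, and none fell, where 2.4% of all genes did. At an unadjusted p below 0.05 in limma the count in expanding leaves was 8 of 8 members in Col-0 and 7 of 8 in gtl1-4, where 28.3% and 16.2% of all genes differed. Limma-voom called 6 members in Col-0, with OST1 added, and 2 in gtl1-4, against 2117 and 830 of the 16522 genes. Scaling each library to its nuclear total moved the share of higher calls among all genes from 49.2 to 69.0% in emerging leaves of Col-0 and from 49.6 to 62.8% in expanding leaves of gtl1-4.

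**Figure D3:**
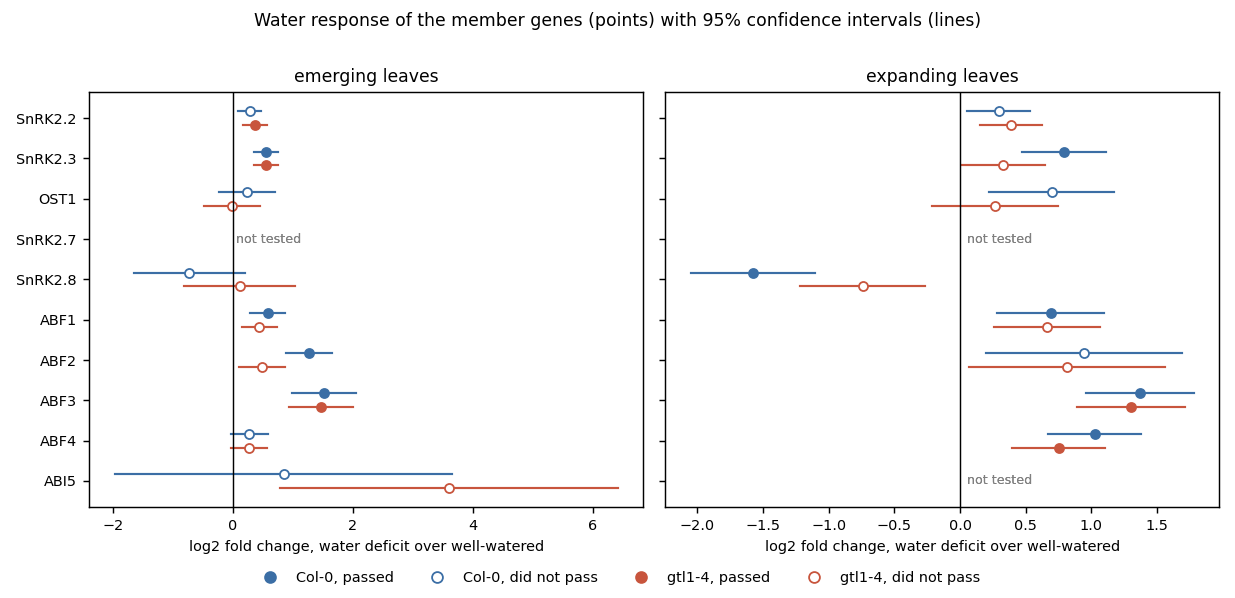
Log2 fold change of water deficit over well-watered (x axes) for each member (y axis) in Col-0 and gtl1-4, with 95% confidence intervals as lines and filled points where the adjusted p was below 0.05. ABF3 has filled points near 1.5 in emerging leaves and near 1.3 in expanding leaves of both genotypes, and SnRK2.8 in expanding Col-0 leaves is the filled point below 0.

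SnRK2.3, an ABA-activated kinase with a large part in seeds and seedlings, rose in Col-0 at both ages. Its normalized counts in emerging leaves were 1163, 1116 and 1008 in the well-watered libraries and 1700, 1553 and 1560 under deficit. Those groups did not overlap, and the log2 fold change was 0.55 (SE 0.095, adjusted p = 0.00153). In expanding leaves the counts were 238.5, 188.1 and 215.3 when well-watered and 360.3, 412.0 and 339.4 under deficit, again without overlap, a log2 fold change of 0.79 (SE 0.149, adjusted p = 0.00238). In gtl1-4 the emerging leaves gave 1108, 1062 and 1048 against 1685, 1497 and 1520, a log2 fold change of 0.55 (adjusted p = 0.00226). The later age of gtl1-4 had 249.0, 265.3 and 202.9 against 330.2, 297.8 and 270.9, and the log2 fold change of 0.33 did not pass (adjusted p = 0.285). The difference between the genotypes in that response, -0.46 on the log2 scale, did not pass either (95% interval -0.91 to -0.015, adjusted p = 0.845).

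SnRK2.2, its closest relative, with 84.4% identity over the aligned coding bases, had smaller log2 fold changes in 3 of the 4 responses, and a slightly larger one, 0.39 against 0.33, in expanding leaves of gtl1-4. RSEM divides reads shared by such copies, so part of the reads of this pair could have been assigned to the other gene. In emerging leaves of Col-0, SnRK2.2 had 1765, 1772 and 1671 normalized counts when well-watered and 2340, 1988 and 2006 under deficit, a log2 fold change of 0.28 that did not pass (adjusted p = 0.0584). That value passed with quantile scaling, nuclear-total scaling and array weights (lowest adjusted p = 0.0238). In gtl1-4 the libraries held 1912, 1697 and 1828 against 2348, 2343 and 2297, and the log2 fold change of 0.36 passed (SE 0.092, adjusted p = 0.0230). The call in gtl1-4 was lost with no variance trend (adjusted p = 0.0511), with only the groups compared in the fit (0.0831), without well-watered replicate 2 (adjusted p = 0.0916), without water-deficit replicate 1 (0.0657) and without water-deficit replicate 2 (0.0591). Without well-watered replicate 2, the library with the large chi-square values, SnRK2.3 and ABF3 were still called in gtl1-4 (adjusted p of 0.00981 and 0.00477), and 888 genes were called in place of 1644. Leaving out well-watered replicate 1 gave 791 genes, and leaving out well-watered replicate 3 gave 1851. In expanding leaves the log2 fold changes of SnRK2.2 were 0.29 in Col-0 (adjusted p = 0.0968) and 0.39 in gtl1-4 (adjusted p = 0.0606). Neither passed, although the 3 deficit libraries lay above the 3 well-watered ones in both genotypes. The Col-0 value passed with quantile scaling (adjusted p = 0.0392), and that of gtl1-4 passed under 5 alternatives (lowest adjusted p = 0.0135).

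OST1, the kinase that closes stomata in response to ABA, was not called in any comparison with limma on the log2 values. Its counts in emerging leaves of Col-0 were 206.5, 197.6 and 160.5 when well-watered and 238.2, 257.3 and 173.7 under deficit, with overlapping groups and a log2 fold change of 0.23 (adjusted p = 0.535). Expanding leaves of Col-0 held 83.1, 90.5 and 72.3 against 110.9, 187.0 and 113.4, without overlap, a log2 fold change of 0.70 (95% interval 0.22 to 1.17, adjusted p = 0.0507). The value of 187.0 came from replicate 2, the library with the highest chloroplast share, and without it the log2 fold change was 0.45 (adjusted p = 0.220). It passed without water-deficit replicate 3 (log2 fold change 0.81, adjusted p = 0.0477), with a pseudocount of 5 (0.0484), with genes averaging 50 or more (0.0460) and with limma-voom (0.0459). In gtl1-4 the log2 fold changes were -0.025 in emerging leaves and 0.27 in expanding leaves (adjusted p of 0.961 and 0.647). The 6 guard cell markers, which mark the cells best known for OST1, held 2 that fell in expanding leaves of Col-0, while SLAC1 and MYB60 had positive log2 fold changes that did not pass. Their sum was 38.1 to 58.2 nuclear CPM in well-watered and 32.6 to 35.3 in water-deficit expanding leaves of Col-0. In emerging leaves of Col-0 these sums were 23.3 to 30.6 and 14.5 to 21.0, and the part of guard cell content in the values of OST1 was not tested.

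SnRK2.8, a kinase known from work on growth and on disease resistance in Arabidopsis, was the one member that fell. In expanding leaves of Col-0 its counts were 97.7, 101.2 and 151.6 when well-watered and 38.3, 39.4 and 35.5 under deficit. The highest deficit library was below the lowest well-watered one, and the log2 fold change was -1.58 (SE 0.224, adjusted p = 2.50e-04), a level 2.99-fold lower. In gtl1-4 they were 106.4, 103.0 and 97.4 against 46.5, 62.6 and 76.9, also without overlap, but the log2 fold change of -0.74 did not pass (95% interval -1.22 to -0.27, adjusted p = 0.0735). The difference between these responses was 0.84 on the log2 scale and did not pass over all genes (95% interval 0.17 to 1.51, limma adjusted p = 0.845). In emerging leaves, where the gene was low, Col-0 had 42.6, 41.9 and 46.4 against 17.3, 55.7 and 17.9. Water-deficit replicate 2 stood apart there, and the log2 fold change was -0.73 with it (adjusted p = 0.304) and -1.26 without it (adjusted p = 0.0512). In gtl1-4 the emerging leaves gave 31.5, 38.2 and 33.9 against 39.1, 47.0 and 28.1, with overlapping groups and a log2 fold change of 0.11 (adjusted p = 0.908). SnRK2.8 shares 169 exon bases with AT1G78280 on the opposite strand, and strand use in counting is not stated, so reads from the shared stretch cannot be told apart. AT1G78280 had a log2 fold change of -0.33 in expanding leaves of Col-0, which did not pass (adjusted p = 0.192).

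SnRK2.7, the other kinase of that subclass, was near the limit of detection. Its recovered counts per library ran up to 16 at the emerging and up to 13 at the expanding stage, and its normalized counts reached at most 12.5. It was listed at 0 in some libraries of 3 groups in emerging leaves and of both Col-0 groups in expanding leaves. SnRK2.7 was below the filter at both ages, so its differences were not tested.

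ABF3, a factor that raises drought tolerance when overexpressed in Arabidopsis, was the member called in all 4 water responses. Normalized counts in emerging leaves of Col-0 were 162.5, 148.2 and 96.7 when well-watered and 482.9, 321.6 and 354.3 under deficit. The log2 fold change was 1.51 (SE 0.251, adjusted p = 0.00118), a level 2.86-fold higher. Emerging leaves of gtl1-4 gave 169.7, 170.4 and 121.8 against 444.0, 561.4 and 304.2, a log2 fold change of 1.47 (SE 0.251, adjusted p = 0.00193). Expanding leaves of Col-0 had 74.6, 61.9 and 73.2 against 168.9, 147.6 and 241.5, a log2 fold change of 1.37 (SE 0.194, adjusted p = 2.42e-04). Expanding leaves of gtl1-4 gave 66.9, 73.4 and 75.7 against 170.9, 160.5 and 208.9, a log2 fold change of 1.3 (SE 0.194, adjusted p = 7.21e-04). In each of these pairs every deficit library lay above every well-watered one. The genotypes differed in the response of ABF3 by -0.044 on the log2 scale in emerging leaves (95% interval -0.80 to 0.71) and by -0.068 in expanding leaves (95% interval -0.65 to 0.51). Its gene shares 24 exon bases with AT4G34020 on the opposite strand, whose log2 fold changes ran from -0.24 to 0.19 in the 4 responses and did not pass.

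ABF2, a factor with a part in sugar signalling and drought tolerance, rose in emerging leaves of Col-0. The counts there were 145.2, 114.9 and 148.9 when well-watered and 380.9, 276.1 and 329.5 under deficit, without overlap, a log2 fold change of 1.26 (SE 0.181, adjusted p = 4.19e-04). In gtl1-4 they were 180.9, 197.4 and 157.8 against 239.6, 284.8 and 224.6, and the log2 fold change of 0.48 did not pass (adjusted p = 0.116). The difference of -0.78 between these responses had a 95% interval of -1.33 to -0.24 and an unadjusted p of 0.00787 in limma, but did not pass over all genes (adjusted p = 0.889). In expanding leaves ABF2 had log2 fold changes of 0.94 in Col-0 and 0.82 in gtl1-4 (adjusted p of 0.0882 and 0.252), with overlapping groups in both genotypes. Well-watered replicate 3 of Col-0 held 62.8 against 30.0 and 29.8 in the other libraries of its group, and without it the log2 fold change was 1.29 and passed (adjusted p = 0.0271).

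ABF4, the factor closest to ABF1 with 78.9% identity over the aligned coding bases, rose in expanding leaves. Its counts in Col-0 were 96.9, 86.9 and 95 when well-watered and 180.8, 185.7 and 204.3 under deficit, a log2 fold change of 1.03 (SE 0.166, adjusted p = 7.76e-04). In gtl1-4 they were 95.4, 74.8 and 101.8 against 140.2, 174.2 and 143.5, a log2 fold change of 0.75 (SE 0.166, adjusted p = 0.0135). Groups did not overlap in either genotype, and the call in gtl1-4 was lost without well-watered replicate 2 (adjusted p = 0.0758) or without water-deficit replicate 2 (adjusted p = 0.0989). In emerging leaves the log2 fold changes were 0.27 in Col-0 and 0.27 in gtl1-4 and did not pass (adjusted p of 0.243 and 0.274). A long noncoding RNA gene on the opposite strand, AT3G03815, shares 754 exon bases with ABF4 and averaged 0.9 normalized counts in emerging and 0.1 in expanding leaves.

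ABF1, which had the highest level of the factors per kilobase, rose by less than ABF3 in Col-0 at both ages. Emerging leaves of Col-0 held 464.9, 410.3 and 377.1 counts when well-watered and 597.0, 708.4 and 564.8 under deficit, a log2 fold change of 0.58 (SE 0.136, adjusted p = 0.0122). In expanding leaves the counts were 151.6, 106.0 and 142.9 against 179.5, 266.9 and 202.6, a log2 fold change of 0.69 (SE 0.191, adjusted p = 0.0258). The groups did not overlap at either age, but the calls did not hold under every alternative. The emerging call was lost without well-watered replicate 3 (adjusted p = 0.0658) or water-deficit replicate 2 (0.0510), and the expanding call without well-watered replicate 2 (0.0911) or water-deficit replicate 2 (0.107) and with only the groups compared in the fit (0.0769). In gtl1-4 the log2 fold changes of ABF1 were 0.44 in emerging and 0.66 in expanding leaves and did not pass (adjusted p of 0.0570 and 0.0605). In emerging leaves of gtl1-4 it passed with array weights (adjusted p = 0.0212), and without well-watered replicate 3 (0.0409) or water-deficit replicate 3 (0.0391). ABF1 shares 123 exon bases with AT1G49730 on the opposite strand, which fell in expanding leaves of Col-0 (log2 fold change -0.59, adjusted p = 0.0376), the direction opposite to that of ABF1.

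ABI5, a factor best known for arresting growth in seeds and young seedlings, was low in these leaves. In emerging leaves its normalized counts were 14.7, 3.22 and 0 in well-watered Col-0 and 20.3, 0 and 16.9 in that genotype under deficit, while well-watered gtl1-4 had 6.1, 1.86 and 0. Water-deficit gtl1-4 stood at 32.1, 69.1 and 14.8, above each well-watered library of that genotype. Its log2 fold change in gtl1-4 was 3.61 with a 95% interval of 0.79 to 6.42 and did not pass (adjusted p = 0.106). In Col-0 it was 0.84 (95% interval -1.98 to 3.66, adjusted p = 0.729), and it changed sign to -0.17 without well-watered replicate 3. The ABI5 maximum of 69.1 came from water-deficit replicate 2 of gtl1-4, which also held the highest counts of its group for the ABRE target genes RD29B (149.3 against 6.01 and 3.90), LEA7 (528.2 against 124.3 and 15.6) and LEA4-5 (240.6 against 14.0 and 8.58), a pattern picked out after the values were seen. In expanding leaves ABI5 ran from 0 to 4.29 normalized counts over the 12 libraries and was not tested.

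The genotypes were compared next, as the design crosses genotype with water supply. No member was called for a genotype difference with limma in any of the 4 settings, where 0.162% of all genes were called in well-watered and 0.183% in water-deficit emerging leaves, and 1.34% and 0.169% in expanding leaves. Limma-voom called 0 members in each as well. At an unadjusted p below 0.05 in limma, 6.89% of all genes differed in well-watered and 5.7% in water-deficit emerging leaves, and 14.7% and 6.65% in expanding leaves. Among the members, 1 of 9 differed in emerging leaves at each water supply, 0 of 8 in well-watered expanding leaves and 2 of 8 in water-deficit expanding leaves. In emerging leaves that member was ABF2 both times, 0.39 higher on the log2 scale in gtl1-4 when well-watered (95% interval 0.006 to 0.78, limma adjusted p = 0.718) and lower under deficit (-0.39, 95% interval -0.78 to -0.006, adjusted p = 0.876). Without well-watered replicate 2 of gtl1-4 the former difference was 0.32 and the interaction of ABF2 was -0.71.

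In water-deficit expanding leaves the members with an unadjusted p below 0.05 in limma were OST1 and SnRK2.8. OST1 read 110.9, 187.0 and 113.4 in Col-0 and 88.8, 62.6 and 88.4 in gtl1-4, a log2 difference of -0.75 (95% interval -1.22 to -0.27, adjusted p = 0.386). Without water-deficit replicate 2 of Col-0 that difference was -0.50 on the log2 scale and did not pass. SnRK2.8 read 38.3, 39.4 and 35.5 in Col-0 and 46.5, 62.6 and 76.9 in gtl1-4, a log2 difference of 0.68 (95% interval 0.20 to 1.15, adjusted p = 0.463). Neither pair of groups overlapped, and neither difference passed over all genes. For ABF3 the interval of the genotype difference was -0.34 to 0.73 in well-watered and -0.38 to 0.69 in water-deficit emerging leaves, and -0.37 to 0.46 and -0.44 to 0.39 in expanding leaves, all on the log2 scale.

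The genotype by water interaction called 0 of 18529 genes in emerging and 0 of 16522 genes in expanding leaves with limma, which is 0% of the genes at each age, and limma-voom also called 0. At an unadjusted p below 0.05 the interaction gave 5.33% of all genes in emerging and 5.74% in expanding leaves. Among the members it gave 1 of 9 in emerging leaves, ABF2, and 2 of 8 in expanding leaves, SnRK2.3 and SnRK2.8, whose values are given above.

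The make-up of the transcript pools was then described as each gene's share of the summed level per kilobase of its family. Of the 10 SnRK2 genes in emerging leaves of Col-0, SnRK2.2 held 29.3 ± 0.813%, SnRK2.1 25.2 ± 0.142% and SnRK2.3 19.6 ± 0.346% when well-watered (mean ± SD, n = 3). Under deficit SnRK2.3 held 25.6 ± 0.295% and SnRK2.1 20.5 ± 0.323%, and in neither gene did the range of shares overlap between the water supplies. A share also moves with the family sum, which was 158 ± 11.6 when well-watered and 189 ± 16.7 under deficit in these leaves. In expanding leaves of Col-0 that sum was 202 ± 18.2 and 219 ± 16.7. SnRK2.1 itself had a log2 fold change of -0.13 in emerging leaves of Col-0, which did not pass (limma adjusted p = 0.370). In well-watered expanding leaves of Col-0, SnRK2.1 held 30 ± 1.21%, SnRK2.2 28.4 ± 1.87% and SnRK2.4 13.5 ± 0.852%. In expanding leaves of Col-0 the share of SnRK2.3 was 10.3 ± 0.761% when well-watered and 16.6 ± 1.15% under deficit. The share of SnRK2.8 was 4.96 ± 1.35% and 1.48 ± 0.114% in the same leaves, and 4.77 ± 0.188% and 2.74 ± 0.72% in gtl1-4. SnRK2.1, SnRK2.4, SnRK2.5 and SnRK2.10, which belong to the subclass that ABA does not activate, were tested at both ages in Col-0 and 0 of 4 passed in limma at either age. Their log2 fold changes ran from -0.26 to 0.15 in emerging and from -0.52 to 0.11 in expanding leaves. SnRK2.9 was at or near 0 in each group.

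Among the factors ABF1 held the largest share per kilobase in each group. It ran from 39.1 ± 2.54% in water-deficit expanding leaves of gtl1-4 to 48.9 ± 3.36% in well-watered expanding leaves of Col-0. These shares depend on the exon lengths used, which differ more between ABF1 and ABF4 than their coding lengths do. ABF3 held 10.7 ± 1.98% of the pool in well-watered and 18.5 ± 2.75% in water-deficit emerging leaves of Col-0. At the later age in Col-0 its share was 18.2 ± 0.873% and 24.8 ± 5.06%. ABF4 held 31.4 ± 3.11% and 23.0 ± 3.72% in emerging leaves of Col-0, the order opposite to that of ABF3. The summed level of the 5 factor genes per kilobase was 23.8 ± 2.29 in well-watered and 42.0 ± 4.22 in water-deficit emerging leaves of Col-0, and 25.2 ± 3.88 and 49.0 ± 5.81 in expanding leaves. For gtl1-4 the emerging leaf sums were 26.2 ± 1.44 and 40.3 ± 5.52, and the expanding leaf sums 23.1 ± 4.08 and 44.1 ± 5.0. In each of the 4 pairs the lowest sum under deficit was above the highest well-watered sum.

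**Figure D4:**
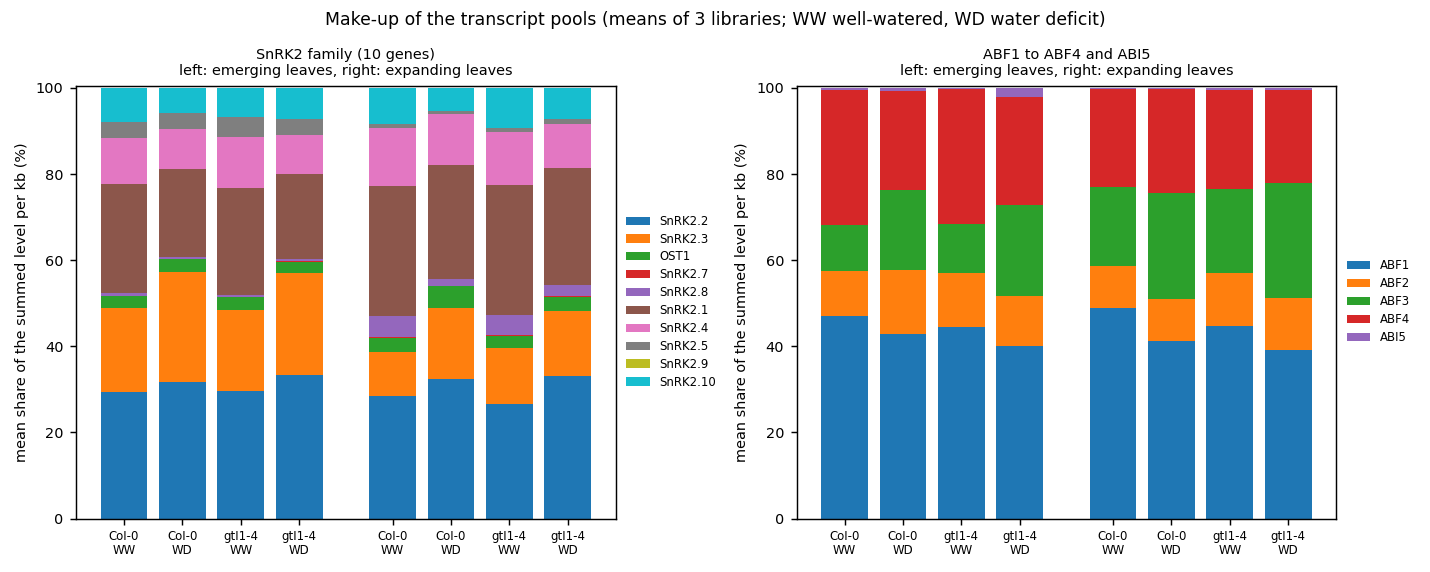
Mean share in percent (y axes, from 0) of each gene in the summed level per kilobase of the SnRK2 family on the left and of ABF1 to ABF4 and ABI5 on the right, with 1 stacked bar per group and 3 libraries per bar. The band of SnRK2.3 is wider under water deficit, 25.6 against 19.6% in emerging Col-0 leaves, and the band of SnRK2.8 is visible mainly in expanding leaves, at 1.48 to 4.96%.

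Across the 24 libraries, with values centred within each leaf age, most pairs of members that were tested at both ages varied together. Pearson's r was 0.85 for SnRK2.3 with ABF3, 0.80 for SnRK2.2 with SnRK2.3 and 0.80 for ABF2 with ABF3. The libraries share their treatment groups, and after the group means were taken out these r values were 0.06, 0.34 and 0.39. SnRK2.8 had a negative r with each of the other 7 members, from -0.80 with ABF4 to -0.49 with ABF2. After the group means were taken out its r was -0.46 with ABF4 and -0.03 with ABF3, and it was positive with OST1, ABF1 and ABF2, at 0.07, 0.39 and 0.16. Over the same libraries the genes most like ABF3 were P5CS1 (r = 0.951), which encodes an enzyme of proline synthesis, LEA7 (0.942), a late embryogenesis abundant protein gene, and AT2G37870 (0.940). Those most like SnRK2.8 were LBD38 (0.822) and LBD37 (0.818), transcription factor genes known for repressing nitrate-response genes, and CGR3 (0.818). For OST1 they were AT2G36240 (0.834), AT4G38932 (0.829) and AT5G56520 (0.822). These r values are a ranking over 16185 genes and describe the libraries alone.

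The rest of the ABA pathway was described from fixed lists, starting with the proteins that act upstream of the kinases. Each count below is to be read against the shares of all tested genes that rose or fell, which in Col-0 were 6.48% and 6.69% in emerging and 6.18% and 7.32% in expanding leaves, and in gtl1-4 were 4.98% and 3.90%, then 2.36% and 2.4%. Of the clade A PP2C genes, whose products dephosphorylate SnRK2 kinases, 7 of 7 tested rose in emerging and 6 of 7 in expanding leaves of Col-0, with a median log2 fold change of 1.83 and 1.40, where the median of all genes was -0.003 and 0.016. In gtl1-4, 6 of 7 rose at each age, with medians of 1.53 and 1.17. HAI2 read 0, 0 and 5.80 in well-watered and 183.9, 94.1 and 108.2 in water-deficit emerging leaves of Col-0. HAI1 had a log2 fold change of 2.63 in emerging and 4.18 in expanding leaves of Col-0, ABI2 one of 1.88 in emerging leaves and PP2CA one of 1.83 and 1.45 (adjusted p of 6.32e-05 or less in limma).

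The ABA receptor genes that passed the test fell. In emerging leaves of Col-0, 5 of 8 tested fell and 0 rose, with a median log2 fold change of -1.03, and in expanding leaves 2 of 6 fell, with a median of -0.21. PYL7 and PYL9 did not pass at either age, with log2 fold changes of 0.006 and 0.15 in emerging and of -0.13 and -0.15 in expanding leaves. PYL4 read 415.6, 325.4 and 326.8 in well-watered and 25.1, 36.1 and 74.4 in water-deficit emerging leaves of Col-0 (log2 fold change -3.09, adjusted p = 4.21e-05). PYL5, PYL1 and PYR1 fell by 3.14, 1.20 and 0.86 on the log2 scale in those leaves, and PYL8 fell by 1.38 in expanding leaves. In gtl1-4, 4 of 8 and 2 of 6 receptor genes fell. Of the RAF-type kinase genes, which include activators of SnRK2 kinases, 0 of 18 passed in limma in emerging leaves of Col-0, and 2 of 16 rose in expanding leaves, AT4G24480 with a log2 fold change of 1.18 and AT5G57610 with 0.61 (adjusted p of 0.00257 and 0.01). In gtl1-4, 2 of 18 fell in emerging leaves, AT5G11850 and RAF10, and 0 of 16 passed in expanding leaves.

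Downstream of the kinases, 7 of 11 ABRE target genes tested rose in emerging and 7 of 10 in expanding leaves, in Col-0 and in gtl1-4 alike by count. The median log2 fold change in emerging leaves of Col-0 was 3.47 as fitted and 2.66 when RD29B and LEA7, which were at 0 in the 3 well-watered libraries, were set to a bound from a floor of 3 counts per library. In expanding leaves of Col-0 it was 3.04 as fitted and with LEA7 at its bound. HIS1-3, a drought-inducible linker histone gene, read 4.00, 30.1 and 3.87 in well-watered and 1588, 957.9 and 839.7 in water-deficit emerging leaves of Col-0. RD29B read 10.0, 13.1 and 6.1 against 692.8, 262.0 and 618.1 in expanding leaves of Col-0, a log2 fold change of 5.55 (adjusted p = 4.07e-06). LEA7, at 0 in each well-watered library of either genotype and age, read 43.5, 22.1 and 43.3 in water-deficit expanding leaves of Col-0.

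Genes for proteins that bind ABI5 or control its turnover gave 2 of 4 that rose in emerging and 3 of 4 in expanding leaves of Col-0. They were led by AFP1, an ABI5-binding protein gene, with log2 fold changes of 3.54 and 3.89, followed by AFP3 with 2.54 and 2.18 (adjusted p of 2.06e-04 or less in limma), while AFP2 rose by 1.53 in expanding leaves (adjusted p = 0.0427). In gtl1-4, 2 of 4 rose at each age. Of the other bZIP factors of group A, 3 of 6 rose in emerging leaves of Col-0, EEL by 1.07, GBF4 by 0.86 and AT5G44080 by 0.67 on the log2 scale, and 0 of 3 passed in expanding leaves. None of the 6 tested in emerging leaves of gtl1-4 passed. Of 7 genes for SnRK2 substrates, AKS1 rose in Col-0 by 0.81 on the log2 scale at the emerging stage and by 1.37 at the expanding stage, and KAT1, a potassium channel gene of guard cells, fell by 0.90 in expanding leaves (adjusted p of 0.00778 or less in limma). Calls of 1 or 2 genes in the substrate and RAF lists are not read as a change of those lists. In gtl1-4 the counts were again 1 that rose at each age and 1 that fell in expanding leaves. In the genotype comparison of well-watered expanding leaves, where 1.34% of all genes were called, 5 pathway genes were called, named here after their values were seen. PYL4, 1 of 6 receptor genes tested, and AT4G24480, 1 of 16 RAF-type kinase genes, were higher in gtl1-4. AFP3, 1 of 4 genes for ABI5 binding or turnover, was lower, as were RD29B and KIN2, 2 of 10 ABRE target genes. None of the genes tested from the other pathway lists passed.

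**Figure D5:**
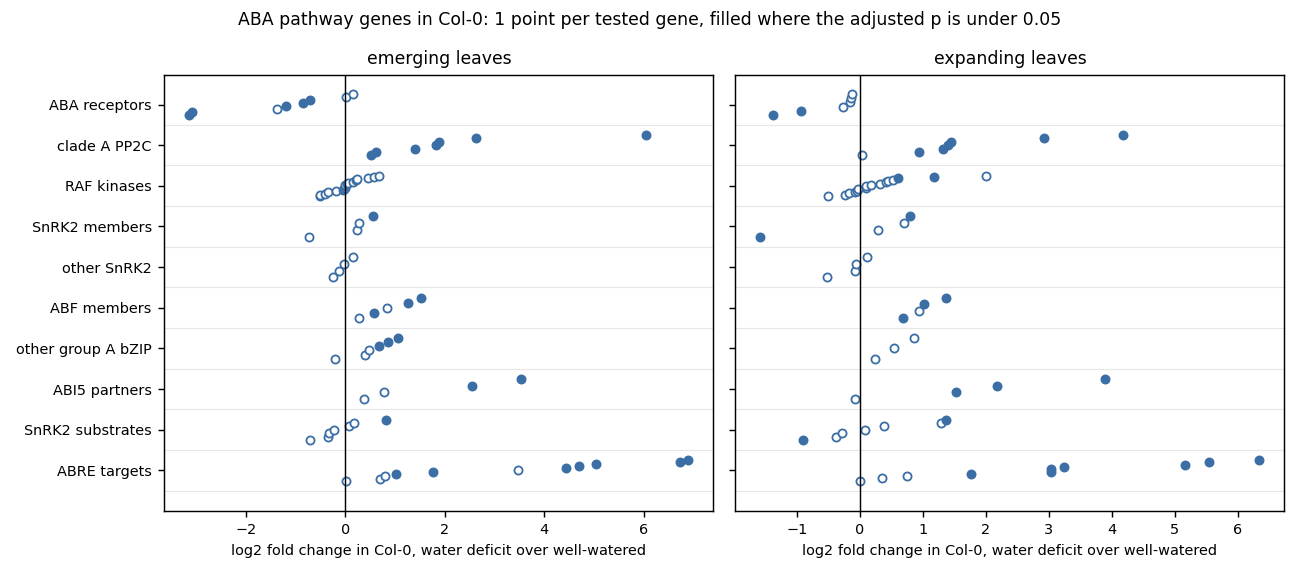
Log2 fold change of water deficit over well-watered in Col-0 (x axes) for the tested genes of each list (y axis), with 1 point per gene, filled where the adjusted p was below 0.05. Filled points of the PP2C, ABI5 partner and ABRE target lists lie above 0, those of the receptor list lie below 0, and SnRK2.8 is the filled SnRK2 member below 0 in expanding leaves.

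Cell type markers moved with water supply in these leaves, and their part in the member values was not tested. The 2 phloem markers summed to 19.1 to 20.4 nuclear CPM in well-watered and 35.9 to 50.3 in water-deficit emerging leaves of Col-0, and to 139 to 188 and 245 to 305 in expanding leaves. SUC2, the phloem sucrose transporter gene, rose at both ages in Col-0, by 1.16 and 0.83 on the log2 scale. APL, the other marker, had a log2 fold change of 0.021 in emerging leaves (limma adjusted p = 0.975) and rose by 0.92 in expanding leaves. In gtl1-4 the phloem sums were 18.3 to 22.3 against 41.3 to 48.2 in emerging leaves, where SUC2 rose. Those of expanding leaves overlapped, at 171 to 270 against 218 to 297, and 0 of 2 markers passed in limma. Between genotypes, 1 of 2 phloem markers was called higher in gtl1-4 in well-watered expanding leaves, where 1.34% of all genes were called. Of the 6 guard cell markers, 1 of 6 fell in emerging and 2 of 6 in expanding leaves of Col-0, AT1G22690 at both ages (log2 fold changes of -3.16 and -1.88) and KAT1 at the later one. SLAC1, a guard cell anion channel gene, and MYB60 had positive log2 fold changes of 1.28 and 0.89 in expanding leaves of Col-0 that did not pass (limma adjusted p of 0.0689 and 0.140). The 4 green leaf markers and the dividing cell markers gave 0 calls in limma at either age in either genotype. The 2 root markers summed to 8.32 to 12.8 in water-deficit emerging leaves of Col-0, where PYK10 rose, and to at most 0.633 in expanding leaves.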

How the data were processed

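Leaf RNA of 24 libraries was analysed, 3 in each of 8 groups of genotype, water supply and leaf age. The authors deposited a normalized signal for each gene, in 1 table per leaf age; per the submitters' processing notes, RSEM and STAR were used with TAIR10, besides Trimmomatic, Trim Galore, FastQC and bcl2fastq. How values were normalized is not given in those sources. Tested on the files, every value below 2000 counts was a multiple of 0.01 of a step particular to its library and 96.5 to 97.9% were whole multiples (tolerance 0.002), the pattern of estimated counts divided by 1 factor per library. That step gave each library's depth. Such depths limit precision for low genes, while p-values reflect variation between pools of plants.

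The test was limma (version 3.58.1, under R 4.3.3) on log2(value + 1). All 4 groups of a leaf age were fitted together, with a variance trend, for genes averaging 10 or more, and p-values were adjusted over all tested genes by the Benjamini-Hochberg method with a threshold of 0.05. Every adjusted p is from limma. Because of the added 1, folds understate changes of low genes. The tables of the leaf ages were scaled separately, so no test was made between ages. Levels per kilobase used exon lengths of TAIR10.1, the reference annotation, which held 37051 of the identifiers. The procedure was tested on simulated data. The alternatives were pseudocounts of 0.5 and 5, other filters and scalings, no variance trend, array weights, fits of the groups compared, a replicate block, limma-voom and leaving out each replicate.

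The members, lists and comparisons were chosen with earlier results of these data known. Genes named by rule are all members, up to 4 called genes per list by size of the Col-0 water response at each age, the 3 genes most like ABF3, SnRK2.8 and OST1, and GTL1. Other genes were named outside this rule. Examples are PYL7, PYL9, SLAC1 and MYB60, which did not pass in Col-0, and AT5G11850 and RAF10, which were called in gtl1-4. ABI5 had no likeness ranking because it was below the filter in expanding leaves. Python 3.11.15 and matplotlib 3.10.9 drew the figures.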

Additional observations from a re-analysis of the deposited data

How the results depend on the processing

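Over 85 results for single members, 1570 of 1605 values under an alternative kept their side of the threshold, 12 lost a call, 23 gained one and 0 called values reversed, while 65 values that did not pass changed sign. The calls of ABF3 in the 4 water responses, of SnRK2.3 in Col-0 and in emerging gtl1-4 leaves, of ABF2 in emerging Col-0 leaves, and of ABF4 and SnRK2.8 in expanding Col-0 leaves were kept under each alternative run. The count of members called in expanding gtl1-4 leaves, 2 as reported, was 4 with nuclear-total scaling, 5 with array weights and 5 with only the groups compared in the fit, with SnRK2.2, ABF1 and in the last pair SnRK2.8 added, and 1 to 2 when a replicate was left out. SnRK2.2 was also called in those leaves with no filter on low values and with quantile scaling. Counts of members called stayed within 1.5 times in the other comparisons. Replicate numbers did not pair the libraries: deviations of same-numbered libraries had correlations of -0.283 to 0.2 in emerging and -0.161 to 0.133 in expanding leaves, and with the replicate block 4 and 3 members were called in emerging and 6 and 2 in expanding leaves of Col-0 and gtl1-4, with ABF2 added in expanding Col-0. Counts over all genes moved more. In gtl1-4 water responses, the 1644 genes of emerging leaves became 1043 without a variance trend, 2772 with array weights and 789 with only the groups compared, and the 787 of expanding leaves became 1772 with array weights and 1265 with only the groups compared, while the 2231 of expanding Col-0 leaves became 1131 with only the groups compared. Genotype differences moved from 30 to 773 with array weights in well-watered emerging leaves, from 222 to 123 without a variance trend and 81 with only the groups compared in well-watered expanding leaves, and from 28 to 112 with array weights in water-deficit expanding leaves. Leaving out a replicate gave 1227 to 2249 for Col-0 and 791 to 1859 for gtl1-4 in emerging leaves, 1462 to 2140 and 389 to 559 in expanding leaves, 17 to 38 and 79 to 214 for the well-watered genotype differences and 15 to 54 for that of water-deficit expanding leaves. The causes were not tested.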
